A study of Mus musculus with 15 samples.

Results

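Gene expression in the striatum was compared between a mouse line bred for much voluntary running in wheels and its control line. The running line is written StHi, with 3 samples, and the control line StCo, with 4 samples. These 7 samples were taken by their labels from the 15 of the series. The 8 other samples, of the cerebellum of both lines (CeHi and CeCo, 4 each), were used only to ask whether a line difference seen in the striatum differed between the regions. Of 26628 genes in the deposited table, 14633 passed the filter on low values in the striatum and were tested.

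All mice were males of the Hsd:ICR stock, labelled as 6 weeks old, and the study's methods give a slightly higher age. Mice of both lines lived with a free running wheel for about a week and were killed during the active phase of the day, so neither group was sedentary. By the study's measures the selected mice ran more and faster than the controls before dissection. Each group came from 1 breeding line, and therefore selection, drift, founder effects and the effect of running itself cannot be told apart. The whole striatum was dissected, RNA was extracted from the bulk tissue, and fewer cells of a type and less RNA per cell cannot be told apart in such samples. The values are normalized counts, fragment counts per gene divided by 1 factor per sample, and they correspond to between 32909386 and 47285374 fragments per striatum sample. One fragment was worth 0.914 to 1.30 normalized counts. Every direction given here rests on the deposited sample names, since no measure independent of these names shows which samples belong to which line. The text and tables of the study do not all give the direction that these names give, including for Krt25, Cd300lf, Spp1 and the respiratory chain and ribosome, so which line is the higher one is uncertain throughout. Which set of samples is higher does not depend on the names. Values of single samples are given in the order of the sample numbers, 0 to 3 in StCo and 0 to 2 in StHi, and StCo comes first where 2 sets are listed. The value after ± is the standard error for a log2 fold change and the standard deviation between samples for a mean.

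The striatum is the main input station of the basal ganglia. Most of its neurons are GABAergic projection neurons that receive glutamate from the cortex and thalamus and dopamine from the midbrain. Those of the direct pathway carry the dopamine D1 receptor and substance P, and those of the indirect pathway carry the D2 receptor, enkephalin and an adenosine receptor, Adora2a. Both pathways are known for their part in starting and stopping movement, in habit and in reward, and voluntary wheel running is a rewarding behavior in rodents.

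The markers of striatal projection neurons were high in every library. Ppp1r1b, the dopamine-regulated phosphatase inhibitor DARPP-32, had normalized counts of 62988, 49398, 54274 and 65686 in StCo and of 53644, 66819 and 63803 in StHi. None of the 15 projection neuron markers, 7 direct pathway markers, 6 indirect pathway markers and 12 interneuron markers tested passed an adjusted P-value of 0.05, beside 1.87% of all genes tested. The median log2 fold changes of these lists, StHi minus StCo, were 0.06, -0.04, 0.21 and -0.02, against 0.00092 over all genes tested. The labelled tissue was therefore matched by its defining transcripts, and the lines overlapped in their summed levels for each of these 4 lists.

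Some summed markers of other cells and of neighboring tissue did move with the line. The 13 oligodendrocyte markers summed to between 226809 and 326390 normalized counts in StCo and between 347825 and 390231 in StHi, and 12 of the 13 were higher on average in StHi, with a median log2 fold change of 0.39. The thalamic markers summed to 3757 to 5054 in StCo and 5700 to 6496 in StHi, the cerebellar markers to 902 to 1208 and 1269 to 1351, and the red blood cell markers to 602 to 1079 and 1209 to 1409. The lines did not overlap in any of these 4 sums. Of the cerebellar markers only 4 were tested, and 2 of them had a higher mean in StHi and the others a lower one. The 7 thalamic and 3 red blood cell markers tested all had a higher mean in StHi. For the cortical excitatory neuron markers the sums ran from 36564 to 53563 in StCo and from 19894 to 41083 in StHi, and 8 of 8 had a lower mean in StHi (median log2 fold change -0.60), with overlapping samples. The 10 choroid plexus and ependyma markers tested all had a higher mean in StHi, and their sums were 8875 to 11707 in StCo and 12483 to 39076 in StHi. Of all these genes, Plekhg1 on the thalamic list was the single call (log2 fold change 0.48 ± 0.089, adjusted P-value 0.0261). How far these shifts enter the gene differences below was not tested.

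**Figure D1:**
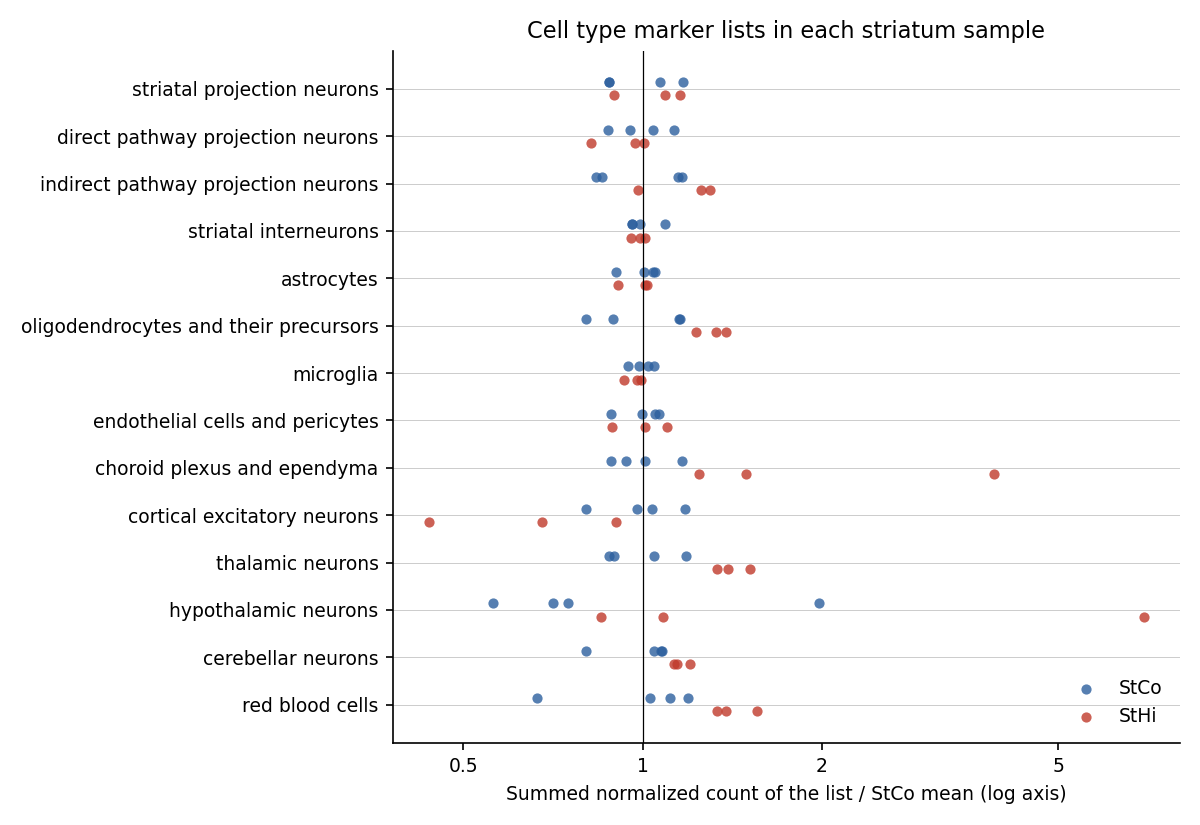
Summed normalized counts of 14 lists of cell type markers in each striatum sample, divided by the StCo mean of the list (log axis). Points are samples, 4 StCo in blue and 3 StHi in red. The striatal neuron lists overlap between the lines, while the oligodendrocyte, thalamic, cerebellar, red blood cell and choroid plexus lists lie higher in all StHi samples.

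The 7 libraries separated by line. Pairwise correlations of log2 values were between 0.990 and 0.995 within a line and between 0.984 and 0.988 across lines, and the first principal component, with 43.4% of the variance, split StHi from StCo. A line difference was called at an adjusted P-value (limma, Benjamini-Hochberg) under 0.05 for 273 of 14633 genes (1.87%), of which 148 were higher in StHi (1.01% of genes tested) and 125 were higher in StCo (0.854%). At an unadjusted P-value under 0.05 there were 1991 genes (13.6%). The 273 genes had a median absolute log2 fold change of 0.63. Of these, 84 exceeded 1 on the log2 scale, 43 higher in StHi and 41 higher in StCo, and 29 exceeded 2. In all 273 the lowest sample of one line was above the highest of the other, which held for 13.0% of all genes tested. Calls were more frequent among rare transcripts, with 3.40% of genes at a mean count below 100 and 0.243% of those above 10000. The mean runs over both lines, and a gene near 0 in 1 line could pass the filter through the other line alone. How far the filter and these classes produce this trend was not tested. The edgeR quasi-likelihood test and DESeq2 on recovered fragments and a fit of all 15 samples shared 242 of the 273 calls. Leaving out 1 sample at a time lowered the count to 172 (StCo replicate 0), 136 (StCo replicate 1), 121 (StHi replicate 1) and 113 (StHi replicate 2), and 92 genes were called in each such fit in which they passed the filter.

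**Figure D2:**
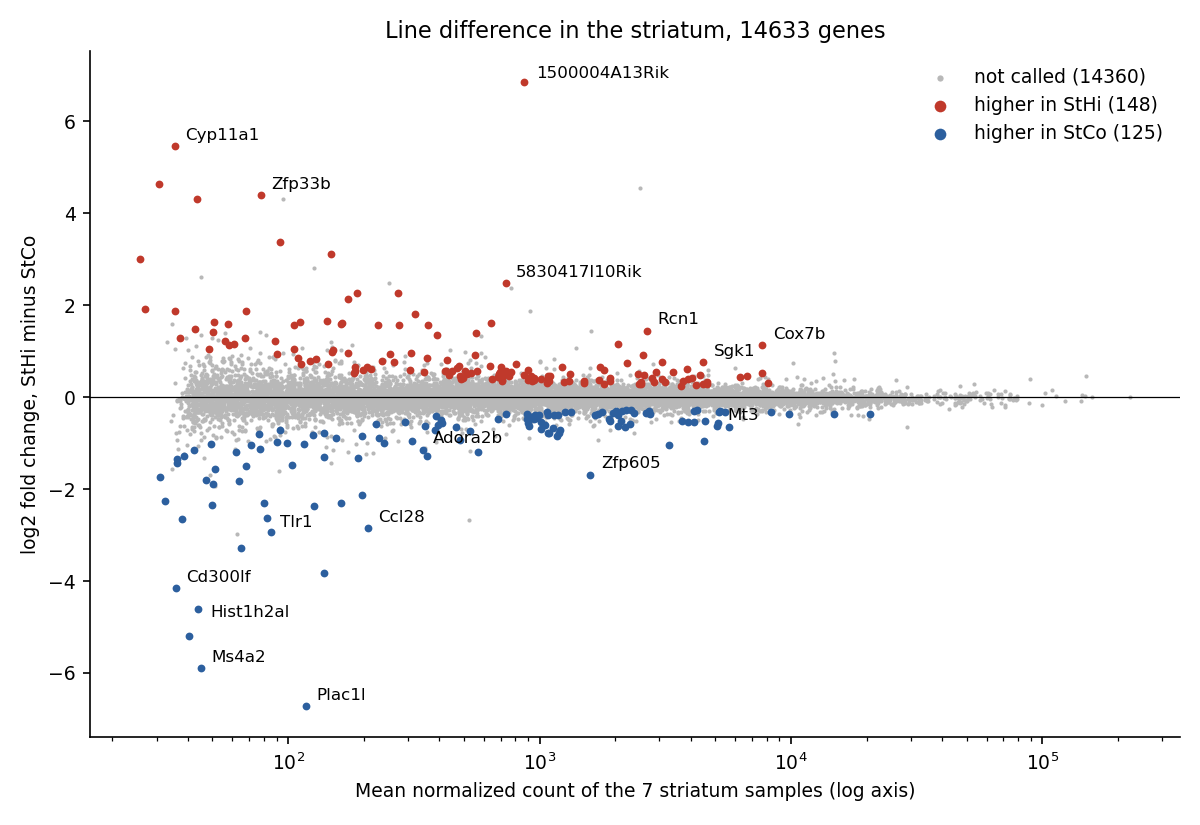
Log2 fold change between lines (StHi minus StCo) against the mean normalized count of the 7 striatum samples (log axis) for 14633 genes. Red points are the 148 genes called higher in StHi, blue points the 125 called higher in StCo, and gray points genes not called. Differences of the called genes narrow with abundance, from 6.85 for 1500004A13Rik to below 1 for most genes above 1000 normalized counts.

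The strongest differences in favor of StHi were in a pair of overlapping noncoding genes on chromosome 3. The long noncoding RNA 1500004A13Rik (chr3:88805289-88832547) had normalized counts of 14.8, 12.9, 28.4 and 12.8 in StCo and of 1892, 2151 and 1937 in StHi. It was close to silent in the control line and well expressed in the selected line, a log2 fold change of 6.85 ± 0.25 (SE) with an adjusted P-value of 1.61e-06. The transcribed pseudogene 5830417I10Rik (chr3:88777057-88829371) rose from 263, 263, 231 and 231 in StCo to 1357, 1465 and 1322 in StHi (log2 fold change 2.48 ± 0.086, adjusted P-value 7.13e-07). These genes share part of their span, and 76.9% of the 31-base windows of 5830417I10Rik also occur in other genes, most often Gon4l. Gon4l, a neighbor on the same segment, was itself lower in StHi (log2 fold change -0.29 ± 0.058, adjusted P-value 0.0365). Fragments of these genes may be split between them.

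Among protein-coding genes, Cox7b, a subunit of cytochrome c oxidase encoded on the X chromosome (chrX:106015700-106022450), was among the most abundant genes called. Its counts were 5488, 4928, 4918 and 5002 in StCo and 12516, 10110.4 and 10871 in StHi, without overlap and 2.19-fold higher on average (log2 fold change 1.13 ± 0.076, adjusted P-value 3.53e-05). H13, which encodes the signal peptide peptidase, had 1838, 1856, 1949 and 1870.3 in StCo and 3609.8, 3431 and 3543 in StHi (log2 fold change 0.91 ± 0.05, adjusted P-value 1.27e-05). Morn2 (a MORN repeat protein) had 71.6, 66.3, 78.8 and 67.6 in StCo and 318, 358 and 361 in StHi (log2 fold change 2.27 ± 0.13, adjusted P-value 1.27e-05). Stom, the membrane protein stomatin, went from 124 ± 14.6 in StCo to 366 ± 30.5 in StHi (log2 fold change 1.56 ± 0.13, adjusted P-value 1.73e-04). Both lines were tight for these genes, with the StHi samples far above the highest StCo sample.

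Several further genes were low in StCo and clearly expressed in StHi. Zfp33b, a zinc finger protein, had normalized counts of 8.64, 5.93, 9.45 and 5.48 in StCo and of 158, 162 and 197 in StHi (log2 fold change 4.40 ± 0.25, adjusted P-value 1.64e-05). Krt12, the keratin of the corneal epithelium, had 43.2, 40.6, 27.3 and 26.5 and 310.0, 313 and 274 (log2 fold change 3.12 ± 0.20, adjusted P-value 3.53e-05). Cml2, of the camello-like acetyltransferase family, had 14.8, 14.8, 26.3 and 15.5 and 158, 248 and 173 (log2 fold change 3.38 ± 0.26, adjusted P-value 1.11e-04), with 27.9% of its windows shared with other genes, most often the related Nat8f4. Cyp11a1, the side-chain cleavage enzyme that opens steroid synthesis from cholesterol, had 1.23, 3.96, 0 and 0 and 112, 63.1 and 68.9 (log2 fold change 5.45 ± 0.58, adjusted P-value 0.00115). The noncoding 1700030C10Rik had at most 3 fragments in each StCo sample and 58.4, 70.9 and 77.2 in StHi, at least 18.6-fold higher when set against 3 fragments per library. The rest of the 12 genes with the smallest P-values in this direction were Gm1976 (log2 fold change 1.62 ± 0.074, adjusted P-value 2.77e-06) and Emid2, a collagen-like extracellular matrix gene (log2 fold change 1.65 ± 0.14, adjusted P-value 2.05e-04).

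**Figure D3:**
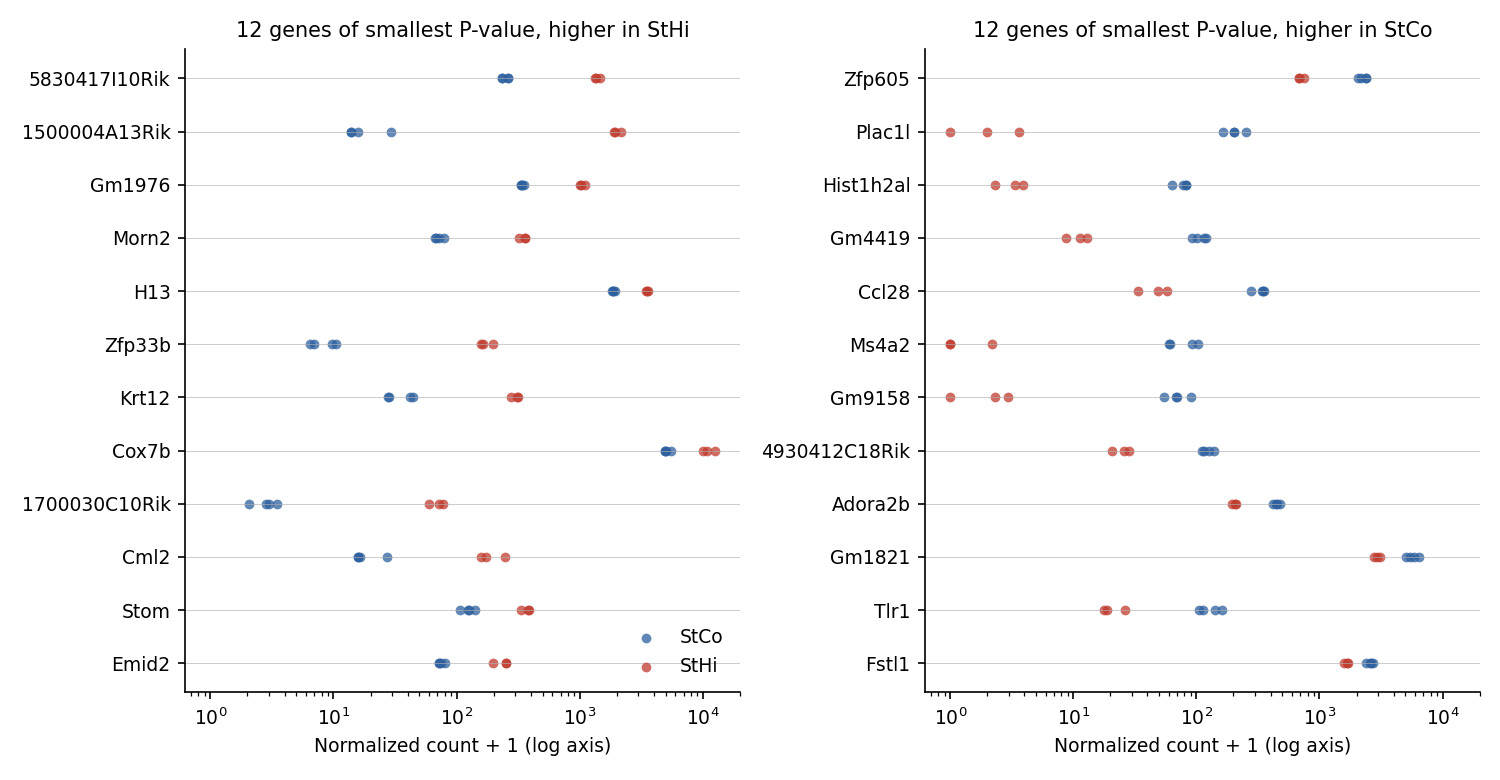
Normalized count plus 1 (log axis) of each striatum sample for the 12 genes with the smallest P-values higher in StHi (left) and the 12 higher in StCo (right). Blue points are the 4 StCo samples and red points the 3 StHi samples. No gene overlaps between the lines, from Plac1l at 0 to 2.59 in StHi against 163 to 254 in StCo to Cox7b at 10110.4 to 12516 in StHi against 4918 to 5488 in StCo.

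In the opposite direction the zinc finger gene Zfp605 had the smallest P-value. Its counts were 2409, 2187, 2055 and 2406 in StCo and 685, 745 and 674 in StHi (log2 fold change -1.69 ± 0.074, adjusted P-value 2.52e-06). Ccl28, a mucosal chemokine, had 278, 339, 349 and 352 in StCo and 32.4, 47.6 and 57.0 in StHi (log2 fold change -2.85 ± 0.19, adjusted P-value 3.53e-05). Tlr1, a toll-like receptor that recognizes bacterial lipopeptides, had 141, 112, 104 and 162 and 16.9, 25.2 and 17.8 (log2 fold change -2.64 ± 0.22, adjusted P-value 2.05e-04). Every StHi sample was below every StCo sample in these 3 genes. Fstl1, a secreted follistatin-related glycoprotein, differed less in fold but at a high level, 2585 ± 129 in StCo and 1649 ± 54.2 in StHi (log2 fold change -0.65 ± 0.059, adjusted P-value 3.60e-04). The ubiquitin-like pseudogene Gm1821 (log2 fold change -0.97 ± 0.079, adjusted P-value 1.65e-04) shares 91.1% of its windows with other genes, most often Ubb, and its fragments may be those of Ubb. The noncoding genes Gm4419 (log2 fold change -3.29 ± 0.22, adjusted P-value 3.53e-05) and 4930412C18Rik (log2 fold change -2.31 ± 0.18, adjusted P-value 1.30e-04) were likewise lower in StHi, and the remaining genes of the 12 with the smallest P-values are described next.

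Some transcripts were close to undetected in 1 line. Taking at most 3 fragments in each sample of a line, and 30 or more in each of the other line, as the measure, 7 genes were at the floor in StHi and 2 in StCo. Folds are given against 3 fragments per library. A group of 3 genes adjoining each other on chromosome 19 was at the floor in StHi. Ms4a2 (chr19:11615517-11623790), the beta chain of the mast cell IgE receptor, had 60.5, 91.0, 103 and 59.4 in StCo and 0, 0 and 1.19 in StHi and was at least 20.2-fold higher in StCo. Ms4a3 (chr19:11629499-11640851), a related membrane protein of blood cell precursors, had 39.5, 59.3, 70.4 and 37.5 and 0, 0.971 and 2.37, at least 13.3-fold higher in StCo. It did not pass the filter and was not tested. Plac1l (chr19:11647284-11660559), named for its likeness to a placental and oocyte protein, had 163, 202, 254 and 199 and 2.59, 0.971 and 0, at least 52.6-fold higher in StCo. All 3 were also at 1 fragment or fewer in every CeHi sample. The histone H2A gene Hist1h2al (at least 19.3-fold, 81.9% of its windows shared, most often with Hist2h2aa2) and the pseudogene Gm9158 (at least 17.9-fold, 71.2% of its windows shared) were called as well, while 5031434O11Rik (at least 12.1-fold) and Obox6 (at least 11.3-fold) were not tested. Beside 1700030C10Rik, Shox2, a homeobox gene on the thalamic marker list, was at the floor in StCo, with 68.7, 81.6 and 42.7 in StHi, at least 17.4-fold higher. It was not tested, and the thalamic sums were 5700 to 6496 in StHi against 3757 to 5054 in StCo. These bounds cover counting error only.

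Apart from Cox7b, the 6 most abundant calls in each direction had log2 fold changes of less than 1 in size. Higher in StHi were Trf, the iron carrier transferrin, with 6774, 5690.2, 6578 and 6918 in StCo and 9693, 9498 and 8562 in StHi (log2 fold change 0.51 ± 0.078, adjusted P-value 0.00968), Olig1, a transcription factor of oligodendrocytes, with 5479 ± 513 and 7398 ± 545 (log2 fold change 0.44 ± 0.08, adjusted P-value 0.0243), Paqr8 (log2 fold change 0.46 ± 0.096, adjusted P-value 0.0427), Clk1, a kinase of splicing factors (log2 fold change 0.31 ± 0.06, adjusted P-value 0.0322), and Daam2 (log2 fold change 0.32 ± 0.056, adjusted P-value 0.0195). Trf and Olig1 are expressed in oligodendrocytes, whose summed markers were 347825 to 390231 in StHi and 226809 to 326390 in StCo, and 63.8% of the windows of Trf occur in other genes, most often Gm20425. Higher in StCo were the tubulin Tuba1a (log2 fold change -0.37 ± 0.081, adjusted P-value 0.0496), Fam49a (log2 fold change -0.37 ± 0.074, adjusted P-value 0.0371), Hmgcs1, the cytosolic synthase of the cholesterol pathway (log2 fold change -0.37 ± 0.051, adjusted P-value 0.00577), Lmo4, a LIM domain transcription regulator (log2 fold change -0.32 ± 0.065, adjusted P-value 0.0371), Rapgefl1 (log2 fold change -0.65 ± 0.074, adjusted P-value 0.00155) and the ubiquitin ligase Herc3 (log2 fold change -0.33 ± 0.067, adjusted P-value 0.0371). The cortical excitatory markers, 8 of 8 with a lower mean in StHi, had the same sign as these 6, and their part was not tested. Of the windows of Tuba1a, 77.0% occur in other genes, most often Tuba1c. Fits with 1 sample fewer ended the call of Olig1 (without StCo replicate 1 or StHi replicates 0 and 1, adjusted P-value up to 0.0948), Paqr8 (without StCo replicates 0, 1 and 2 or StHi replicates 0 and 1, adjusted P-value up to 0.161), Clk1 (without StCo replicates 0, 2 and 3 or StHi replicates 0, 1 and 2, adjusted P-value up to 0.153) and Daam2 (without StCo replicate 1 or StHi replicates 1 and 2, adjusted P-value up to 0.103). Likewise dependent on single samples were Tuba1a (without StCo replicates 0, 1 and 2 or StHi replicates 0, 1 and 2, adjusted P-value up to 0.161), Fam49a (without StCo replicates 0, 1 and 3 or StHi replicates 0, 1 and 2, adjusted P-value up to 0.144), Lmo4 (without StCo replicates 0, 1 and 3 or StHi replicates 0, 1 and 2, adjusted P-value up to 0.149) and Herc3 (without StCo replicates 0, 1, 2 and 3 or StHi replicates 1 and 2, adjusted P-value up to 0.123).

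Genes of the signaling systems for which the striatum is known were examined by list. No member passed the test, beside 1.87% of all genes tested, among 25 genes of dopamine signaling, 7 of the opioid system, 8 of the endocannabinoid system, 18 ionotropic and 7 metabotropic glutamate receptors, 16 GABA receptors, 11 serotonin receptors, 12 acetylcholine receptors, 32 calcium and sodium channels, 42 G proteins and RGS regulators, 31 genes of synaptic vesicle exocytosis and 68 of axon guidance. At that share most lists of these sizes would hold few calls or none, so these counts show nothing particular to these systems. Their median log2 fold changes lay between -0.14 and 0.03. Some lists leaned to 1 side. Of the 31 synaptic vesicle genes 6 had a higher mean in StHi (median -0.12), beside 50.3% of all genes tested. Of these 31, 11 had an unadjusted P-value (limma) under 0.05, beside 13.6% of all genes. A higher mean in StHi was found in 1 of 8 endocannabinoid, 1 of 7 opioid and 9 of 32 calcium and sodium channel genes, and in 15 of 25 dopamine genes. The cause of these leans was not tested. Drd1a, the dopamine D1 receptor, had 11201, 8819.6, 8773 and 12398 in StCo and 8342, 10858 and 10682 in StHi (log2 fold change -0.041 ± 0.14 (SE)), and Drd2, the D2 receptor, 5103, 3551, 3531 and 4888 and 4125, 5275 and 5113 (log2 fold change 0.19 ± 0.15 (SE)). The samples of the lines overlapped for both receptors. A P-value over the threshold does not show that levels were equal. Immediate early genes, which report recent neuronal activity, also had no call among 18, with a median of 0.04. Arc ranged from 4861 to 9295 in StCo and from 8032 to 10631 in StHi, and Egr1 from 12022 to 14822 and from 9016 to 14757, with overlap in both.

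Among receptors of neuropeptides and adenosine 3 were called, all lower in StHi. Adora2b, the low-affinity A2B adenosine receptor (chr11:62248984-62266452), had normalized counts of 419.7, 479.7, 441 and 453 in StCo and of 192, 206 and 209 in StHi (log2 fold change -1.14 ± 0.092, adjusted P-value 1.45e-04). The other 6 adenosine genes tested were not called (1.87% of all genes tested were), and Adora2a itself had a log2 fold change of 0.31 ± 0.13 (SE). Trhr, the receptor of thyrotropin-releasing hormone, had 429.5, 467, 462 and 479.9 in StCo and 288, 274 and 275 in StHi (log2 fold change -0.72 ± 0.084, adjusted P-value 0.00187). Npy1r, the Y1 receptor of neuropeptide Y, had 1028, 1087, 1067 and 938 and 779.6, 791 and 702 (log2 fold change -0.44 ± 0.077, adjusted P-value 0.0195). Each of the 3 receptors was lower in all StHi samples than in any StCo sample. Trhr and Npy1r were the calls among 36 other neuropeptide genes, of which 9 had a higher mean in StHi (median log2 fold change -0.13). Of 74 potassium channel genes 2 were called, near the share over all genes. Kcnk1, a potassium leak channel, was higher in StHi (log2 fold change 0.48 ± 0.094, adjusted P-value 0.0345) and Kcnip3, a calcium sensor that binds Kv4 channels, was lower (log2 fold change -0.31 ± 0.062, adjusted P-value 0.0358). Orai2, a subunit of store-operated calcium channels, was on no list and had 4248, 4226, 3952 and 4448 in StCo and 2919.8, 2890.1 and 3041 in StHi (log2 fold change -0.51 ± 0.054, adjusted P-value 0.00106). The call was lost when 1 sample was left out for Npy1r (without StCo replicates 0 and 1 or StHi replicates 1 and 2, adjusted P-value up to 0.105), Kcnk1 (without StCo replicate 1 or StHi replicates 0, 1 and 2, adjusted P-value up to 0.117) and Kcnip3 (without StCo replicates 0, 1 and 3 or StHi replicates 0, 1 and 2, adjusted P-value up to 0.154). Cortical excitatory marker sums were 19894 to 41083 in StHi against 36564 to 53563 in StCo, and their part in these differences was not tested.

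Metallothioneins are small cysteine-rich proteins that bind zinc and copper. The genes Mt1 and Mt2 are switched on by glucocorticoids and, through response elements close to the start, by metals. Mt3, the form most typical of brain, had normalized counts of 5595, 6167, 6269 and 5930.1 in StCo and of 4261, 3783 and 3506 in StHi (log2 fold change -0.64 ± 0.073, adjusted P-value 0.00160). Mt2 had 2258, 2562, 2817 and 2048 and 1541, 1792 and 1366 (log2 fold change -0.63 ± 0.12, adjusted P-value 0.0393). Mt1 had 4462, 4924, 5523 and 4525 and 3876, 4327 and 3523 and was not called (log2 fold change -0.31 ± 0.092, adjusted P-value 0.148). The StHi samples were below the StCo samples in all 3 genes. The same was true of Bbs2, the neighboring gene of the ciliary BBSome complex, which had 1302, 1450.0, 1669.6 and 1405 and 734, 883 and 921 (log2 fold change -0.78 ± 0.10, adjusted P-value 0.00438). Bbs2, Mt3 and Mt2 were the 3 genes tested in a segment of 106 kb on chromosome 8, Mt1 lies just beyond its end, and all were named after their values were seen. Fits with 1 sample fewer ended the call of Mt2 (without StCo replicates 0, 1 and 2 or StHi replicates 0 and 2, adjusted P-value up to 0.158). The start regions of the metallothioneins are shown because all 3 genes were lower in every StHi sample. They are RefSeq sequences of GRCm38.p6 on the plus strand, 250 bases before to 50 bases after the start. Matches to the string TGCNCNC on either strand (GNGNGCA when reversed) are in capitals. This string is looser than the core of the metal response element, so a match need not hold that core. Matches may overlap one another.
Mt3, chr8:94152357-94152656: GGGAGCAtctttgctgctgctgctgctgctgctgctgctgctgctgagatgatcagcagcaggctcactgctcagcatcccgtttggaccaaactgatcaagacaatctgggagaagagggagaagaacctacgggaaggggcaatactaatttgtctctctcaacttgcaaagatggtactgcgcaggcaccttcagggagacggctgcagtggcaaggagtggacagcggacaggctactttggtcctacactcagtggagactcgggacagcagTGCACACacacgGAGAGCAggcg
Mt2, chr8:94172368-94172667: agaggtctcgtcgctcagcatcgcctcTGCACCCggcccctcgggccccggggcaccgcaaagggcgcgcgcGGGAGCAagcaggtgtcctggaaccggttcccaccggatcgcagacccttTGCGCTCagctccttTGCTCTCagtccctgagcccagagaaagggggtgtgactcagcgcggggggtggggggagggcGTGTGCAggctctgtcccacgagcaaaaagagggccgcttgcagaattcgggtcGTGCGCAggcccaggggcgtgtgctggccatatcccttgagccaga
Mt1, chr8:94178839-94179138: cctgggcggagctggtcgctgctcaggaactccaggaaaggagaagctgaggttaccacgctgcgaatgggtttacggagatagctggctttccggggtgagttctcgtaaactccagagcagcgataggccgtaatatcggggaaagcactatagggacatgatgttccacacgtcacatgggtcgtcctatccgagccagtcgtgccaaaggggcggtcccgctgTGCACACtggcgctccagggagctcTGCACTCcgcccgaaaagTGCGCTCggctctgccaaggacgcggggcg
This looser string occurred 3 times in the window of Mt3, 6 times in that of Mt2 and 3 times in that of Mt1. Of 32851 such windows of the genome, 51.0% held the string at least once, 20.2% at least 2 times and 2.30% at least 4 times. A match is a string of letters and not a measured binding site.

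Genes of cilia and of the cell surface, also named after their values were seen, were called in both directions. Higher in StHi were Ift27, of intraflagellar transport (log2 fold change 0.56 ± 0.098, adjusted P-value 0.0193), Cep290, of the ciliary transition zone (log2 fold change 0.36 ± 0.073, adjusted P-value 0.0375), and Rsph1, of the radial spoke of motile cilia (log2 fold change 1.81 ± 0.32, adjusted P-value 0.0335). B9d1, another transition zone gene (log2 fold change -0.61 ± 0.091, adjusted P-value 0.00954), was lower, as was Bbs2. Choroid plexus and ependyma markers, which come from ciliated tissue, summed to 12483 to 39076 in StHi and 8875 to 11707 in StCo. The chemokine receptor Cxcr4 (log2 fold change 1.05 ± 0.20, adjusted P-value 0.0322), the integrin-associated protein Cd47 (log2 fold change 0.54 ± 0.088, adjusted P-value 0.0148), the death receptor Fas (log2 fold change 1.47 ± 0.25, adjusted P-value 0.0174) and the growth factor Gdf10 (log2 fold change 0.56 ± 0.091, adjusted P-value 0.0142) were higher in StHi. Not called in every fit with 1 sample left out were Ift27 (without StCo replicates 0 and 1 or StHi replicates 1 and 2, adjusted P-value up to 0.0908), Cep290 (without StCo replicates 1, 2 and 3 or StHi replicates 0, 1 and 2, adjusted P-value up to 0.167), Rsph1 (without StCo replicates 0, 1 and 3 or StHi replicates 1 and 2, adjusted P-value up to 0.128) and B9d1 (without StHi replicate 2, adjusted P-value up to 0.0528). The same applied to Cxcr4 (without StCo replicates 0, 1 and 2 or StHi replicates 1 and 2, adjusted P-value up to 0.144), Cd47 (without StCo replicate 1 or StHi replicates 1 and 2, adjusted P-value up to 0.0771), Fas (without StCo replicate 1, adjusted P-value up to 0.0561) and Gdf10 (without StHi replicate 1, adjusted P-value up to 0.0612).

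Iron and stress-related genes were named after their values were seen. Tfrc, the transferrin receptor, was lower in StHi with 5114, 5613, 5239 and 4916 in StCo and 3688, 3438 and 3790.2 in StHi (log2 fold change -0.52 ± 0.06, adjusted P-value 0.00173), opposite to its ligand Trf. Sgk1, a kinase induced by glucocorticoids, had 3320.3, 3505, 3721 and 3189 and 6629.5, 4913 and 6077 (log2 fold change 0.77 ± 0.098, adjusted P-value 0.00438). Sgk1 is also expressed in oligodendrocytes, whose markers were higher in StHi. Rcn1, a calcium-binding protein of the endoplasmic reticulum, had 1558, 1319, 1401 and 1913 and 3908, 4061 and 4563 (log2 fold change 1.44 ± 0.12, adjusted P-value 3.60e-04). These 3 genes did not overlap between the lines. Gucy1a2, a subunit of the nitric oxide-sensitive guanylate cyclase, was higher in StHi (log2 fold change 0.55 ± 0.081, adjusted P-value 0.00875), and Pde9a, which degrades cyclic GMP, was lower (log2 fold change -0.43 ± 0.086, adjusted P-value 0.0371). Adi1, of the methionine salvage pathway, had 1352 ± 210.4 in StCo and 2979 ± 165 in StHi (log2 fold change 1.15 ± 0.11, adjusted P-value 6.54e-04). Fits with 1 sample fewer ended the call of Pde9a (without StCo replicates 0, 2 and 3 or StHi replicates 0, 1 and 2, adjusted P-value up to 0.167).

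Energy metabolism and protein synthesis lists leaned towards StHi by small amounts. Of 80 genes of the respiratory chain and ATP synthase 66 had a higher mean in StHi, with a median log2 fold change of 0.07, and Cox7b alone was called. Cytosolic ribosomal proteins behaved alike, with 72 of 81 higher, a median of 0.06 and 1 call, Rpl7l1, a ribosomal protein-like gene (log2 fold change 0.37 ± 0.081, adjusted P-value 0.0484). Of 75 mitochondrial ribosomal proteins 55 were higher (median 0.04), and Mrpl9 (log2 fold change 0.64 ± 0.062, adjusted P-value 5.14e-04) and Mrps10 (log2 fold change 0.68 ± 0.13, adjusted P-value 0.0273) were called. Over all genes tested 50.3% had a higher mean in StHi and 1.87% were called. Genes of a list are not independent. The respiratory chain sums did not overlap, at 415560 to 430363 in StCo and 466306, 431422 and 438773 in StHi. The cytosolic ribosomal sums overlapped, at 514936 to 554669 and 591534, 553044 and 533700. So did the mitochondrial ribosomal sums, at 83736 to 87520 and 91686, 86308 and 85528. StHi replicate 0 was the highest sample in each of these lists. Among 32 genes of glycolysis and the citric acid cycle none was called and the median was 0.0047. The pyruvate dehydrogenase kinases, which gate the entry of pyruvate into that cycle and were named after their values were seen, went apart, with Pdk1 lower in StHi (log2 fold change -0.47 ± 0.076, adjusted P-value 0.0139) and Pdk4 higher (log2 fold change 0.58 ± 0.12, adjusted P-value 0.0424). Not called in every fit with 1 sample left out were Rpl7l1 (without StCo replicates 0, 1 and 3 or StHi replicates 0, 1 and 2, adjusted P-value up to 0.200), Mrps10 (without StCo replicates 0 and 1 or StHi replicates 0, 1 and 2, adjusted P-value up to 0.109), Pdk1 (without StCo replicate 1 or StHi replicates 1 and 2, adjusted P-value up to 0.0779) and Pdk4 (without StCo replicates 0, 1 and 2 or StHi replicates 0, 1 and 2, adjusted P-value up to 0.147).

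Several other lists had shares of calls near or below the 1.87% of all genes tested. None was called among 64 heat shock genes (median log2 fold change 0.023), 18 clock genes (0.0070), 23 neurotrophic and angiogenic factors (-0.017), 10 astrocyte markers (0.12) and 12 endothelial and pericyte markers (-0.047). Of 46 genes on the proteasome list Psmc3ip was called, with 82.7, 103, 103 and 118 in StCo and 352, 596 and 553 in StHi (log2 fold change 2.26 ± 0.19, adjusted P-value 2.56e-04). It encodes a partner of meiotic recombinases and no proteasome subunit, and it overlaps Mlx.

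Enzymes of redox, sterol and aldehyde metabolism included calls in both directions, beside 1.01% of all genes tested called higher in StHi and 0.854% higher in StCo. Gstm6, a glutathione transferase, had 67.9, 86.1, 110.3 and 85.0 in StCo and 235, 260.3 and 287 in StHi (log2 fold change 1.58 ± 0.17, adjusted P-value 0.00115), and Gss, the glutathione synthetase, 433 ± 10.5 and 578 ± 14 (log2 fold change 0.41 ± 0.073, adjusted P-value 0.0202). These were the calls among 41 glutathione and antioxidant genes, and both rose. Of 21 cytochrome P450 genes 3 were called, all higher in StHi. Besides Cyp11a1 these were Cyp27a1, the sterol 27-hydroxylase (log2 fold change 0.77 ± 0.14, adjusted P-value 0.0275), and Cyp2j12 (log2 fold change 1.87 ± 0.29, adjusted P-value 0.0108). Retinaldehyde dehydrogenase Aldh1a1 had 612, 604, 515 and 536 and 961, 906 and 806 (log2 fold change 0.65 ± 0.092, adjusted P-value 0.00619), and its neighbor and paralog Aldh1a7 was also higher (log2 fold change 1.12 ± 0.21, adjusted P-value 0.0257). Aldh3a1, an aldehyde dehydrogenase best known from cornea, was lower, with 66.7, 65.3, 41.0 and 65.8 in StCo and 7.78, 5.83 and 13.1 in StHi (log2 fold change -2.66 ± 0.31, adjusted P-value 0.00181). The aldehyde dehydrogenases were named after their values were seen. The call was lost when 1 sample was left out for Gss (without StCo replicates 0 and 1 or StHi replicates 1 and 2, adjusted P-value up to 0.0967), Cyp27a1 (without StCo replicates 0 and 1 or StHi replicates 0, 1 and 2, adjusted P-value up to 0.109), Cyp2j12 (without StHi replicate 1, adjusted P-value up to 0.0571) and Aldh1a7 (without StCo replicate 0 or StHi replicates 0, 1 and 2, adjusted P-value up to 0.104).

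Immune genes moved in both directions. The summed microglial markers overlapped between the lines, at 24765 to 27305 in StCo and 24346 to 26048 in StHi. Of the 13 markers, 6 did not overlap between the lines, beside 13.0% of all genes tested. Their log2 fold changes ran from -0.39 to 0.45 over the 13. C1qb, a chain of the complement component C1q, was the 1 call of 13, beside 1.87% of all genes tested, with 950.4, 976, 969 and 921 and 1449, 1283 and 1191 (log2 fold change 0.45 ± 0.075, adjusted P-value 0.0153). Spp1, which encodes osteopontin, had 81.5, 65.3, 78.8 and 44.8 in StCo and 486, 248 and 205 in StHi (log2 fold change 2.13 ± 0.31, adjusted P-value 0.0109). Other immune genes, on no list and named after their values were seen, were Siglech (log2 fold change 0.67 ± 0.12, adjusted P-value 0.0243) and Fcrls (log2 fold change 1.56 ± 0.29, adjusted P-value 0.0371), both higher in StHi, and the complement receptor C3ar1 (log2 fold change -1.57 ± 0.26, adjusted P-value 0.0142), the cytokine Il1a (log2 fold change -1.27 ± 0.26, adjusted P-value 0.0396) and Il7r (log2 fold change -1.01 ± 0.18, adjusted P-value 0.0236), which were lower together with Tlr1. In the interferon response list Gbp11, a guanylate-binding protein, had 70.4, 73.2, 60.9 and 89.6 and 19.5, 19.4 and 17.8 (log2 fold change -1.89 ± 0.20, adjusted P-value 0.00115) and Ifit2 had 662, 1002, 599.6 and 749 and 313, 360.3 and 300.4 (log2 fold change -1.19 ± 0.16, adjusted P-value 0.00663). They were the calls among 37 genes, beside 1.87% of all genes tested, and 12 of the 37 had a higher mean in StHi (median log2 fold change -0.17). Of the windows of Gbp11, 34.3% occur in other genes, most often Gbp8. Of 18 genes of antigen presentation 1 was called, H2-Ke6 (log2 fold change 0.72 ± 0.12, adjusted P-value 0.0182), which lies in the histocompatibility region but encodes a hydroxysteroid dehydrogenase. Fits with 1 sample fewer ended the call of C1qb (without StHi replicate 1, adjusted P-value up to 0.0611), Siglech (without StCo replicate 1 or StHi replicates 0, 1 and 2, adjusted P-value up to 0.103), Fcrls (without StCo replicates 0, 1 and 2 or StHi replicate 1, adjusted P-value up to 0.129) and C3ar1 (without StHi replicate 2, adjusted P-value up to 0.0641). Likewise dependent on single samples were Il1a (without StHi replicates 0 and 2, adjusted P-value up to 0.159), Il7r (without StCo replicates 0, 1 and 3 or StHi replicates 0, 1 and 2, adjusted P-value up to 0.0864) and H2-Ke6 (without StCo replicate 1 or StHi replicates 1 and 2, adjusted P-value up to 0.108).

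Nuclear and structural gene families had scattered calls. Of 349 zinc finger genes named Zfp 8 were called, 2 higher in StHi (Zfp33b and Zfp236) and 6 lower (Zfp131, Zfp157, Zfp605, Zfp760, Zfp839 and Zfp945), beside 1.87% of all genes tested. Among 14 clustered histone genes Hist2h2be rose, with 223, 203, 221 and 226 in StCo and 418, 479.7 and 388 in StHi (log2 fold change 0.97 ± 0.10, adjusted P-value 0.00116), while Hist1h2al fell to the floor. Both keratins called of 8, Krt12 and Krt25, were higher in StHi. Krt25, a keratin of the hair root sheath, had 11.1, 6.92, 4.20 and 2.74 and 45.4, 56.3 and 53.4 (log2 fold change 3.0 ± 0.41, adjusted P-value 0.00464). Col5a2, a fibrillar collagen, rose with 184, 288, 296 and 186 and 531, 605 and 644 (log2 fold change 1.34 ± 0.19, adjusted P-value 0.00786), and Col19a1 fell (log2 fold change -0.69 ± 0.13, adjusted P-value 0.0278), out of 46 collagens and laminins. Myoc, the secreted glycoprotein myocilin, which is on no list and was named after its values were seen, had 129.6, 165, 107 and 143 in StCo and 18.2, 26.2 and 9.50 in StHi (log2 fold change -2.94 ± 0.31, adjusted P-value 0.00106). Nkx6-2, a homeobox gene of oligodendrocytes (log2 fold change 0.56 ± 0.11, adjusted P-value 0.0370), Cdh19, a cadherin of glia (log2 fold change 0.52 ± 0.095, adjusted P-value 0.0257), and the ligand Wnt3 (log2 fold change 0.72 ± 0.15, adjusted P-value 0.0415) were higher in StHi, and Pcdhga6 was lower (log2 fold change -0.48 ± 0.079, adjusted P-value 0.0144). Among 453 predicted genes named Gm 17 were called, 14 of them lower in StHi. The call was lost when 1 sample was left out for Col5a2 (without StHi replicate 2, adjusted P-value up to 0.0551), Col19a1 (without StCo replicate 0 or StHi replicates 1 and 2, adjusted P-value up to 0.134), Nkx6-2 (without StCo replicates 0, 1 and 3 or StHi replicates 0, 1 and 2, adjusted P-value up to 0.135) and Cdh19 (without StCo replicates 0 and 1 or StHi replicates 1 and 2, adjusted P-value up to 0.133). Calls were also lost in this way for Wnt3 (whichever sample was left out, adjusted P-value up to 0.136), Pcdhga6 (without StHi replicate 2, adjusted P-value up to 0.0641), Zfp236 (without StCo replicate 1, adjusted P-value up to 0.0516), Zfp760 (without StHi replicates 1 and 2, adjusted P-value up to 0.105), Zfp839 (whichever sample was left out, adjusted P-value up to 0.167) and Zfp945 (without StCo replicates 0 and 1 or StHi replicates 0, 1 and 2, adjusted P-value up to 0.154).

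Called genes lay close to one another on the chromosomes. Of the 259 called genes that could be placed on GRCm38, 118 (45.6%) had another called gene within 1 Mb, against 3303 of 13834 tested genes that were not called (23.9%). Neighboring genes are not independent, and no test was made. Joining called genes less than 1 Mb apart gave 185 segments, of which 141 held a single gene, 25 held 2 and 19 held 3 or more, with 68 genes in the last group. Chromosomes 17, 12, 3 and 5 had the highest shares of called genes, 2.80%, 2.69%, 2.64% and 2.60%, and the X chromosome had 3 calls of 506 (0.593%), Cox7b among them.

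Segments differed in whether their genes moved together. On chromosome 13 (chr13:119488086-119791477) 4 of 5 tested genes were lower in StHi, namely Gm7120 (log2 fold change -0.79 ± 0.11, adjusted P-value 0.00643), Ccl28, Hmgcs1 and Zfp131 (log2 fold change -0.53 ± 0.062, adjusted P-value 0.00187). On chromosome 3 (chr3:95676201-96664519) 5 of 30 were called and all were higher, namely Adamtsl4 (log2 fold change 0.94 ± 0.17, adjusted P-value 0.0234), Hist2h2be, 6330549D23Rik (log2 fold change 1.87 ± 0.31, adjusted P-value 0.0156), Rbm8a, a core protein of the exon junction complex (log2 fold change 0.36 ± 0.059, adjusted P-value 0.0142), and the integrin Itga10 (log2 fold change 1.02 ± 0.17, adjusted P-value 0.0142). In the other segments with 4 or more calls neighbors went both ways. The clearest case was on chromosome 11, where Cd300lf (chr11:115116214-115135372), an inhibitory receptor of myeloid cells, lies within the span of Rab37, a small GTPase of secretory granules (chr11:115091331-115162773). Cd300lf had 54.3, 56.4, 62.0 and 67.6 in StCo and 1.30, 6.80 and 1.19 in StHi (log2 fold change -4.16 ± 0.44, adjusted P-value 0.00106), while Rab37 had 56.8, 57.4, 57.8 and 52.1 and 210.1, 171 and 133 (log2 fold change 1.57 ± 0.17, adjusted P-value 0.00131). The line differences of these genes were thus opposite in sign, from similar levels in StCo, and because their spans overlap, fragments may be split between them. Kif19a and Fads6 of that segment were higher in StHi. On chromosome 17 (chr17:79354699-80577813) Morn2 and Cdkl4 were higher and Gm17315, Galm and Gm10190 lower. Not called in every fit with 1 sample left out were Adamtsl4 (without StCo replicates 0 and 1 or StHi replicates 0 and 1, adjusted P-value up to 0.0890), Rbm8a (without StCo replicate 1 or StHi replicate 1, adjusted P-value up to 0.0681) and Itga10 (without StHi replicate 1, adjusted P-value up to 0.0571). The same applied to Kif19a (without StCo replicates 0, 1, 2 and 3 or StHi replicates 1 and 2, adjusted P-value up to 0.129), Fads6 (without StCo replicate 1 or StHi replicates 0, 1 and 2, adjusted P-value up to 0.0967) and Cdkl4 (without StCo replicates 0, 2 and 3 or StHi replicates 0 and 2, adjusted P-value up to 0.123). Calls were also lost in this way for Gm17315 (without StCo replicate 1 or StHi replicate 2, adjusted P-value up to 0.0836), Galm (without StCo replicates 0, 1 and 3 or StHi replicates 0 and 1, adjusted P-value up to 0.0839) and Gm10190 (without StCo replicate 1 or StHi replicate 2, adjusted P-value up to 0.0639).

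Chromosome 5 carried 3 of the 8 segments with 4 or more calls. The first (chr5:103692362-105346476) held Aff1 (log2 fold change 0.54 ± 0.078, adjusted P-value 0.00773), Spp1 and Zfp33b, higher in StHi, and Gbp11, lower. The next (chr5:136147456-136987959) held Emid2 and 4933404O12Rik, higher, and Orai2 and Znhit1, lower, in 4 of 9 tested genes. The last (chr5:138085050-138460900) held Cnpy4, higher, and Zkscan1, Gal3st4 and Zfp157, lower, in 4 of 13. Zkscan1 had 4257, 3993, 4027 and 4406 in StCo and 2837, 1823 and 1616 in StHi (log2 fold change -1.04 ± 0.17, adjusted P-value 0.0243), and the StHi samples were themselves spread. Of the windows of Gal3st4, 95.6% occur in another gene. Not called in every fit with 1 sample left out were 4933404O12Rik (without StHi replicates 1 and 2, adjusted P-value up to 0.0764), Znhit1 (without StCo replicates 0, 1, 2 and 3 or StHi replicates 1 and 2, adjusted P-value up to 0.150) and Cnpy4 (without StCo replicates 0, 1 and 2 or StHi replicates 0, 1 and 2, adjusted P-value up to 0.176). The same applied to Zkscan1 (without StCo replicates 0, 1, 2 and 3 or StHi replicates 1 and 2, adjusted P-value up to 0.104) and Gal3st4 (without StCo replicates 0 and 1 or StHi replicates 1 and 2, adjusted P-value up to 0.0681).

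**Figure D4:**
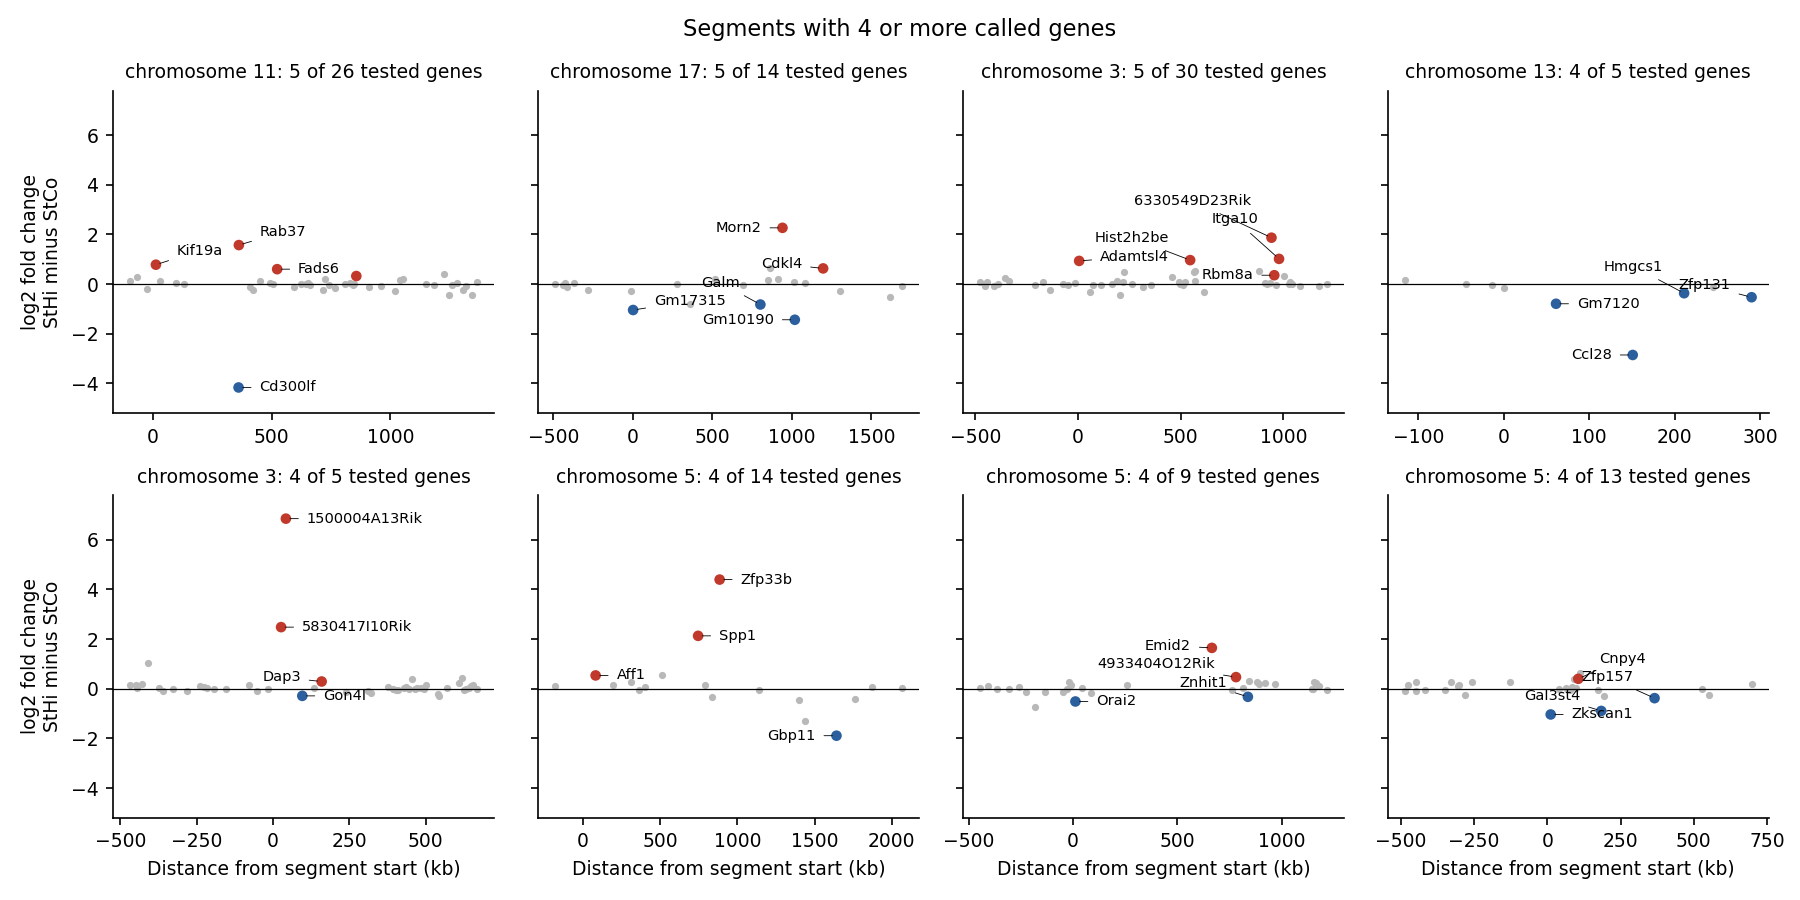
Log2 fold change (StHi minus StCo) of tested genes against the distance of the gene's midpoint from the start of the segment in kb, for the 8 segments with 4 or more called genes and their surroundings. Red and blue points are genes called higher and lower in StHi, with names for most of those in the segment, and gray points are tested genes that were not called. Called genes lie on both sides of 0 in 6 panels, while on chromosome 13 all 4 lie below 0 and in the upper chromosome 3 panel all 5 lie above 0.

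The same line contrast was available in the cerebellum. Of the 273 genes called in the striatum, 158 were also called there and 156 of these had the same sign, beside 5.94% of 15213 genes called in the cerebellum overall. Counting all 273 regardless of a call, 247 had the same sign in both regions. Cox7b (log2 fold change 1.16 in the cerebellum), 5830417I10Rik (3.13), Zfp33b (4.35), Ccl28 (-3.42) and Plac1l (-8.61) were among the shared calls. The mice of the regions share their lines, and the same-numbered samples may come from the same animals, so the cerebellum is not independent evidence of a line difference.

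A line-by-region interaction, which tests whether the difference in the striatum departs from that in the cerebellum, was called for 81 of 15213 genes (0.532%). The fit treats all 15 samples as separate animals. The labels do not say whether striatum and cerebellum samples of the same number came from 1 mouse, and control samples of the same number shared low transcripts, as given below for Cwc22 and Tuba1c. Of the 81 genes, 22 were among the 273, and the striatum samples enter both tests. Among these 22, Krt25 had the largest interaction. It was higher in StHi than StCo and lower in CeHi (54.9 ± 16.6) than in CeCo (216 ± 28.3), an interaction of 5.0 ± 0.45, adjusted P-value 3.20e-05. Myo18b, a myosin of striated muscle, was reversed the other way, lower in StHi with 142, 124, 122 and 117 in StCo and 66.2, 51.5 and 70.1 in StHi (log2 fold change -1.01 ± 0.16, adjusted P-value 0.0115) and higher in CeHi (41.0 ± 8.82) than in CeCo (15.4 ± 2.2), an interaction of -2.35 ± 0.27, adjusted P-value 3.75e-04. The fold change also had opposite signs, without a call in the cerebellum, in Col5a2 (interaction 1.61 ± 0.26, adjusted P-value 0.00722), Aldh3a1 (-3.07 ± 0.55, adjusted P-value 0.0165), Wnt3 (0.88 ± 0.14, adjusted P-value 0.00747), Plekhg1 (0.60 ± 0.12, adjusted P-value 0.0276), Pde9a (-0.66 ± 0.13, adjusted P-value 0.0220), Fam49a (-0.59 ± 0.094, adjusted P-value 0.00670) and Klhl1. With the same sign in both regions, the striatal difference was the larger in Rab37 (1.34 ± 0.16, adjusted P-value 6.10e-04), Cd300lf (-3.07 ± 0.51, adjusted P-value 0.00842), Rcn1 (1.03 ± 0.18, adjusted P-value 0.0151), Emid2 (1.54 ± 0.32, adjusted P-value 0.0410), Orai2 (-0.46 ± 0.076, adjusted P-value 0.00842), Gm10190 (-1.14 ± 0.19, adjusted P-value 0.0108), H13 (0.34 ± 0.06, adjusted P-value 0.0151), Zfp605 (-0.56 ± 0.10, adjusted P-value 0.0179) and Tuft1. For 4930412C18Rik, 4933404O12Rik, Kif19a and A630081J09Rik the cerebellar difference was the larger. An interaction without a call in the striatum was seen for Npsr1, the receptor of neuropeptide S (129 ± 30.4 in StCo and 88.0 ± 17.3 in StHi), and for Npy, neuropeptide Y (3494 ± 493 and 3246 ± 241). Leaving out CeCo replicate 0, CeHi replicate 2, StCo replicate 1, StHi replicate 1 or StHi replicate 2 lowered the count of interactions from 81 to 49, 53, 52, 46 and 50.

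**Figure D5:**
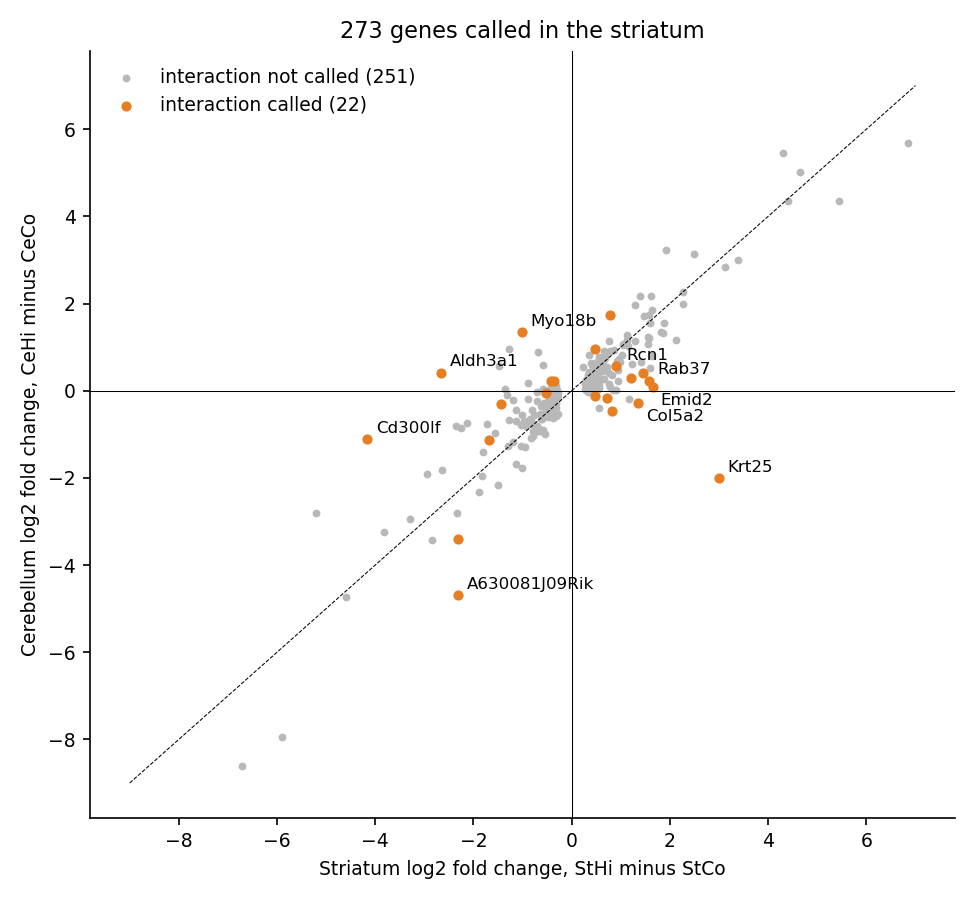
Log2 fold change between lines in the cerebellum (CeHi minus CeCo) against that in the striatum (StHi minus StCo) for the 273 genes called in the striatum. Orange points are the 22 genes with a called interaction and gray points the other 251, and the dashed line marks equal values. Most genes follow the line, with Krt25 at 3.0 and -2.01 and Myo18b at -1.01 and 1.34 in opposite quadrants.

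Mice of 1 line differed widely in a few transcripts. Over 13161 genes with a mean count of at least 100, the standard deviation of log2 values within lines had a median of 0.105 and a 95th percentile of 0.294. The 10 genes with the largest values were Ttr, Tuba1c, Avp, Oxt, Gm12191, Il1f9, Cwc22, A730098P11Rik, Gm19757 and Prdm12, and none was called between lines. Cwc22, a splicing factor of the exon junction pathway, had 21914, 11089.6, 1132 and 22498 in StCo and 23739.6, 12359.5 and 12202 in StHi, so that StCo replicate 2 was far below the rest. The interleukin gene Il1f9, with 749, 461, 36.8 and 845 and 978, 557 and 457, and the noncoding Gm19757, with 125, 117, 14.7 and 214 and 240.0, 139.8 and 148, were lowest in the same sample. The tubulin Tuba1c was low in a different sample, StCo replicate 0, with 8.64, 701, 668 and 551 and 1367, 993 and 1124. In the cerebellum the CeCo samples of the same numbers were the low ones, with Cwc22 at 36100.5, 17984, 1127 and 31480.4 and Tuba1c at 29.8, 522, 605 and 567. Of the windows of Cwc22 25.0% occur in other genes, most often Gm13698, and of those of Tuba1c 55.3% do, most often in Tuba1b.

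Other variable transcripts are abundant in tissue next to the striatum. Ttr, the transthyretin of choroid plexus, had 504, 44.5, 54.6 and 62.2 in StCo and 492, 1496 and 14994 in StHi, highest in StHi replicate 2. Avp and Oxt, the hypothalamic hormones vasopressin and oxytocin, had 17.3, 3.96, 102 and 2.74 and 679.7, 21.4 and 57.0, and 33.3, 70.2, 397 and 13.7 and 271, 23.3 and 81.9. The lines overlapped in all 3 genes, and the high samples were not the same for Ttr as for the hormones. En2, a homeobox gene of the cerebellum and midbrain, had 35.8, 41.5, 37.8 and 54.8 in StCo and 59.7, 149.6 and 164 in StHi, higher in every StHi sample and not called (log2 fold change 1.42 ± 0.33, adjusted P-value 0.0750). Nr4a2, an orphan nuclear receptor, had 2350.1, 2564, 1641 and 2486 in StCo and 1378, 946 and 1944 in StHi (log2 fold change -0.71 ± 0.25 (SE)), and was not called. Six3 (log2 fold change 0.12 ± 0.089, adjusted P-value 0.638), a homeobox gene of the forebrain, and Ndst4 (log2 fold change -0.37 ± 0.20, adjusted P-value 0.476), a heparan sulfate enzyme, were not called either.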

How the data were processed

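The authors mapped paired-end 100-base reads to mouse GRCm38 with TopHat2 and deposited Cuffnorm (version 2.2.1) values, which are used here as a per-gene signal. These are fragment counts divided by a library factor with no correction for length, since 99.6% to 99.7% of low values in each striatum sample were whole multiples of 1 step (tolerance 0.05). One StHi library was removed by the authors after principal component analysis. Samples were grouped by their labels, and each is 1 mouse. Genes with at least 1 CPM (recomputed from the values) in 3 samples were kept. Values were scaled by TMM (edgeR 4.0.16), and log2(value + 1) was tested with limma 3.58.1 (trend and robust moderation, R 4.3.3) in the 7 striatum samples, with Benjamini-Hochberg adjustment. The interaction came from all 15 samples. DESeq2 1.42.0 was run on recovered fragments as an alternative. Fold changes of low genes are understated by the pseudocount of 1. The design had assumed FPKM, and the test stayed the same. Tested on simulated data with 200 genes changed by 1 on the log2 scale, the line fit (14537 genes) recovered 98.5% with 5.80% false calls, and the interaction fit (14918 genes) 85.9% with 3.93%. The simulated samples were independent, and each gene had the spread typical of its abundance. These rates therefore need not hold for the data, where some genes varied far more and changes were of many sizes.

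Named were the 12 genes of smallest P-value and the 6 most abundant called genes in each direction, called members of 50 gene lists with up to 4 of the most abundant members of each, 18 genes named by the study, genes at the floor in 1 line, the 10 genes of largest within-line spread and called genes of the largest segments. Genes said to be named after their values were seen fall outside this rule, as do the members of the smaller segments and of the interaction. A few genes are not reported here. Members and lists were chosen with earlier results of these data known. Positions are those of GRCm38 (GENCODE and RefSeq). Shared windows are 31-base stretches of a gene's transcripts found in those of any other gene, and a gene named with them is the one matched most often. The strand of counting is not given in the sources used here, so overlapping genes cannot be separated. Alternatives covered pseudocounts of 0.1 and 10, filters, scaling, moderation, weights, a replicate block and leaving out each sample.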

Additional observations from a re-analysis of the deposited data

Results flagged for a closer look

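Of 156 groups of 4 StCo samples tested, over the genes and marker sums described, 15 had 1 sample whose gap to the rest exceeded Dixon's 95% critical value, and chance alone gives about 1 such group in 20. Groups of 3 StHi samples were not tested. StCo replicate 2 lay apart, in normalized counts against the range of the other StCo samples, in 1500004A13Rik (28.4 against 12.8 to 14.8), Aldh3a1 (41.0 against 65.3 to 66.7), Avp (102 against 2.74 to 17.3), Cml2 (26.3 against 14.8 to 15.5), Oxt (397 against 13.7 to 70.2), the summed markers of hypothalamic neurons (799 against 226 to 302) and the summed markers of cerebellar neurons (902 against 1176 to 1208). StCo replicate 0 stood apart in Ccl28 (278 against 339 to 352), Cdh19 (405 against 465 to 474), Cox7b (5488 against 4918 to 5002) and Ttr (504 against 44.5 to 62.2). StCo replicate 1 stood apart in Clk1 (8009.6 against 7079 to 7213). StCo replicate 3 stood apart in Fcrls (267 against 159 to 173), Itga10 (88.7 against 108 to 109.9) and Mrpl9 (1050.4 against 957 to 973). The hypothalamic hormones Avp and Oxt and the cerebellar markers were thus apart in the same sample. Leaving out StCo replicate 2 gave 277 calls, of which only 208 were among the 273.

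The line difference differed between striatum and cerebellum, by the interaction test at an adjusted P-value under 0.05, in 24 of the genes examined. Values are log2 fold changes in the striatum minus those in the cerebellum. Among genes called in the striatum the interaction was positive for 4930412C18Rik (1.09), Col5a2 (1.61), Emid2 (1.54), H13 (0.34), Krt25 (5.0), Plekhg1 (0.60), Rab37 (1.34), Rcn1 (1.03) and Wnt3 (0.88). It was negative for 4933404O12Rik (-0.49), Aldh3a1 (-3.07), Cd300lf (-3.07), Fam49a (-0.59), Gm10190 (-1.14), Kif19a (-0.95), Myo18b (-2.35), Orai2 (-0.46), Pde9a (-0.66) and Zfp605 (-0.56). Among genes without a call in the striatum the values were those of Ms4a3 (3.16), Necab1 (2.45), Npsr1 (5.56), Npy (-1.35) and Vdr (2.93). Of these, Ms4a3 did not pass the filter in the striatum. Its mean normalized counts were 51.7 in StCo and 1.12 in StHi, and 242 in CeCo and 0 in CeHi. With both running-line groups near the floor, its interaction cannot be told apart from the difference between the control levels. Necab1 had mean normalized counts of 9055 in StCo and 7303 in StHi and Npsr1 had mean normalized counts of 129 in StCo and 88.0 in StHi.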

How the results depend on the processing

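The count of 273 line differences was 134 with a filter of 10 CPM, which tests fewer genes, 179 with plain moderation, 463 with sample quality weights and 631 by DESeq2 on recovered fragments. The causes of the last 3 were not tested. It ranged from 113 to 277 when 1 sample was left out, with 172 without StCo replicate 0, 136 without StCo replicate 1, 121 without StHi replicate 1 and 113 without StHi replicate 2. Among those fits the split between higher and lower changed most without StHi replicate 1, to 44 higher and 77 lower in StHi. Apart from the replicate block, the other settings gave between 270 (median-of-ratios scaling) and 405 (all 15 samples fitted together), with 284 by edgeR on recovered fragments, an alternative added after the data were seen. The interaction count of 81 was 182 with sample quality weights and ranged from 46 to 117 when 1 sample was left out.

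The deviations of same-numbered StCo and StHi samples had correlations of 0.25 (replicate 0), -0.021 (replicate 1) and -0.050 (replicate 2). The 9 pairs of unlike number ran from -0.26 to 0.14, so replicate 0 lay above them and the others within them. So few correlations cannot decide whether the numbers mark a pairing or a shared batch. A replicate block gave 193 line differences, 149 of them shared, and 73 interactions. For the 121 called genes among those named, 2461 values under alternatives held 2088 on the same side of the threshold, 373 no longer past it and 0 of opposite sign. Of the 121, 67 passed the threshold under every alternative with all 7 samples that tested them. Among settings that kept all 7 striatum samples, plain moderation (36 genes) and the block (36) lost the most calls. Scaling moved the median log2 fold change over all genes to between -0.0015 and 9e-04. One fragment was worth up to 1.30 normalized counts, which limits genes below 30 fragments.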
